A study of Homo sapiens with 15 samples.

Results

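The sodium pump of cultured kidney epithelium was followed through 6 named genes: the beta subunits ATP1B1, ATP1B2 and ATP1B3 and the FXYD regulators FXYD2, FXYD5 and FXYD6. They were chosen by name, and 5 of the 6 were among the 15790 genes of the table of normalized counts, while ATP1B2 was not analysed here. The read-through gene FXYD6-FXYD2 is described beside them, as the 1 of 12 further pump, FXYD and proton pump genes on a family list that was found in the table.

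RNA was sequenced from 5 groups of 3 libraries each, all of established human lines harvested on day 14. The fibroblast monocultures were fHDF/TERT166, an immortalized dermal fibroblast line, scraped from the bottom of the well. The other 4 groups held RPTEC/TERT1, an immortalized line from the renal proximal tubule. It grew together with those fibroblasts, as co-cultures, or alone, as monocultures, either on LN/FN-silk membranes (silk) or on LN/PC membranes. Epithelial cells were seeded at 140000 per square centimetre and fibroblasts at 14000 per square centimetre, and 3 to 8 membranes were pooled per sample. Each line is a single immortalized line, and silk membranes were scraped off while LN/PC membranes were cut out of their holders, so the effect of the membrane cannot be told apart from that of harvest. Nothing in the labels tells whether the 3 libraries of a group came from separate cultures, so p-values measure only the spread between these libraries, which may be technical.

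The sodium pump, or Na,K-ATPase, moves sodium out of the cell and potassium into it at the cost of ATP, and in tubule epithelium it sits in the basolateral membrane and drives sodium reabsorption. Its larger subunit does the catalysis, while a glycosylated beta subunit is needed for the complex to fold and to reach the surface. FXYD proteins are small single-span membrane proteins that bind the pump and tune its affinity for ions: FXYD2 is the gamma subunit of the kidney pump, and FXYD5, also called dysadherin, is known for weakening contacts between cells.

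Library totals were 9078771 to 12662726 normalized counts, and 1 read was worth an estimated 0.745 to 1.315 of them. The epithelial libraries carried a mixed set of tubule markers. Of 15 proximal tubule markers 12 were in the table, and of 13 distal tubule and collecting duct markers 6 were. A mean of at least 100 normalized counts was reached by 9 proximal and 2 distal markers in monocultures on silk. In monocultures on LN/PC it was reached by 7 proximal and 2 distal markers. In fibroblast monocultures it was reached by 4 proximal markers and 1 distal marker. PAX8, a factor of renal epithelium on the proximal list, averaged 4658 ± 878 normalized counts in monocultures on silk and 3803 ± 883 in monocultures on LN/PC, whereas AQP1, the water channel of the proximal tubule, averaged 10.7 ± 3.94 in monocultures on silk and 10.3 ± 4.38 in monocultures on LN/PC (SD, n = 3 each). AQP1 was far higher in fibroblast monocultures, at 6709 ± 448. SLC12A1, the sodium-potassium-chloride cotransporter of the thick ascending limb, averaged 5011 ± 1516 in monocultures on silk and 10589 ± 120 in monocultures on LN/PC. Of 12 endothelial and immune markers 2 were in the table. All 25 fibroblast markers were. Over 112 fibroblast-restricted genes, fibroblast RNA made up 0.0457 ± 0.0597% of co-cultures on silk and 12.97 ± 2.804% of co-cultures on LN/PC (SD, n = 3 each), so fibroblast RNA differed between the co-cultures alongside the membrane. The 13 mitochondrially encoded genes took 4.13 ± 0.398% of counts in co-cultures on silk and 1.61 ± 0.378% in co-cultures on LN/PC, and 3.71 ± 1.18% in monocultures on silk and 1.82 ± 0.915% in monocultures on LN/PC. The part of this difference in the results below was not tested.

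The beta subunits took opposite places in the 2 cell types. ATP1B1, the beta subunit of most epithelia, was far lower in fibroblasts than in epithelium, while ATP1B3 differed little between them. ATP1B1 (ENSG00000143153.14) lies on the plus strand of chromosome 1 at 169105697 to 169132722, and ATP1B3 (ENSG00000069849.11) on the plus strand of chromosome 3 at 141876124 to 141926514 (GRCh38, GENCODE 29). ATP1B1 stood at 136, 139 and 128 normalized counts in fibroblast monocultures, 7876, 8343 and 7533 in co-cultures on silk, 5263, 7645 and 7592 in monocultures on silk, 11848, 13315 and 9542 in co-cultures on LN/PC, and 9987, 7732 and 9468 in monocultures on LN/PC. Every epithelial library was above every fibroblast library, and the highest libraries were co-cultures on LN/PC. ATP1B3 stood at 727, 813 and 769.5 in fibroblast monocultures, 584, 526 and 505 in co-cultures on silk, 516, 563 and 650.3 in monocultures on silk, 699, 642 and 603 in co-cultures on LN/PC, and 588, 376 and 602 in monocultures on LN/PC. All 3 fibroblast libraries were above all 12 epithelial libraries, though by little. The log2 ratio of ATP1B3 to ATP1B1 within a library was 2.52 ± 0.0918 in fibroblast monocultures, against -3.55 ± 0.207 in monocultures on silk and -4.14 ± 0.199 in monocultures on LN/PC (SD, n = 3 each).

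In fibroblasts against the mean of both epithelial monocultures, ATP1B1 was 0.0173 times as high (log2 difference -5.85 ± 0.15 SE, adjusted p = 3.33e-11, limma with Benjamini-Hochberg adjustment), and ATP1B3 was 1.42 times as high (0.51 ± 0.16, adjusted p = 0.0189). All 5 genes differed in this comparison, in which 58.3% of 14502 tested genes did. The ATP1B3 call was lost with library totals made equal, a scaling that moved the median of all genes to -0.40 (log2 difference 0.13, adjusted p = 0.416, limma), and without the second fibroblast library (0.47, adjusted p = 0.0727) or the third (0.51, adjusted p = 0.0524). The libraries of this comparison were all monocultures. In bulk RNA of co-cultures, fewer cells of a type and less RNA per cell cannot be told apart. Per kilobase of transcript (median coding transcript of GENCODE 29), ATP1B1 averaged 59.8 normalized counts in fibroblast monocultures, 3043 in monocultures on silk and 4036 in monocultures on LN/PC, and ATP1B3 averaged 581 in fibroblast monocultures, 435 in monocultures on silk and 394 in monocultures on LN/PC. On this per-length scale ATP1B3 was the more abundant beta subunit in fibroblasts and ATP1B1 in epithelium.

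The promoters of both genes are shown because the ratio of ATP1B3 to ATP1B1 parts the 2 cell types. Windows are from RefSeq (GRCh38.p14, 250 bases before to 50 after the start site, plus strand). Capitals mark the GC box letters GGGCGG or CCGCCC and the CCAAT box letters CCAAT or ATTGG. The ATP1B1 window is chr1:169106440-169106739 and the ATP1B3 window chr3:141876393-141876692.
ATP1B1: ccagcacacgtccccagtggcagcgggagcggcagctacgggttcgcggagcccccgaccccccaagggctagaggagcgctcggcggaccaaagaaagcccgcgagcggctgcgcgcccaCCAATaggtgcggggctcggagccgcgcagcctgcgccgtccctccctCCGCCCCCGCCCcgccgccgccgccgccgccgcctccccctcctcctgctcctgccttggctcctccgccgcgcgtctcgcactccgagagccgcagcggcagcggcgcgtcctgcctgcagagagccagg
ATP1B3: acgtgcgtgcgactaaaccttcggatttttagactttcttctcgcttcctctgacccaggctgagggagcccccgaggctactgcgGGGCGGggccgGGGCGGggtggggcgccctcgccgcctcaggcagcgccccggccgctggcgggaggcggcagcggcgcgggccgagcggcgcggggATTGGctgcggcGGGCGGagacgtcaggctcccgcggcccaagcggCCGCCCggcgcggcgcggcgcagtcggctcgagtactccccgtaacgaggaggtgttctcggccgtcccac

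Both windows were rich in GC, at 77% for ATP1B1 and 75% for ATP1B3 against a median of 58.7% over 34796 promoters of the same length. The ATP1B1 window held 2 GC boxes and the ATP1B3 window 4, and each held 1 CCAAT box, on either strand. A GC box was in 44.9% of all promoters and a CCAAT box in 34.6%. Neither window held the TATA box letters TATAAA, which 11.6% of promoters held, or the letters TGANTCA of an AP-1 site, which 7.73% held.

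**Figure D1:**
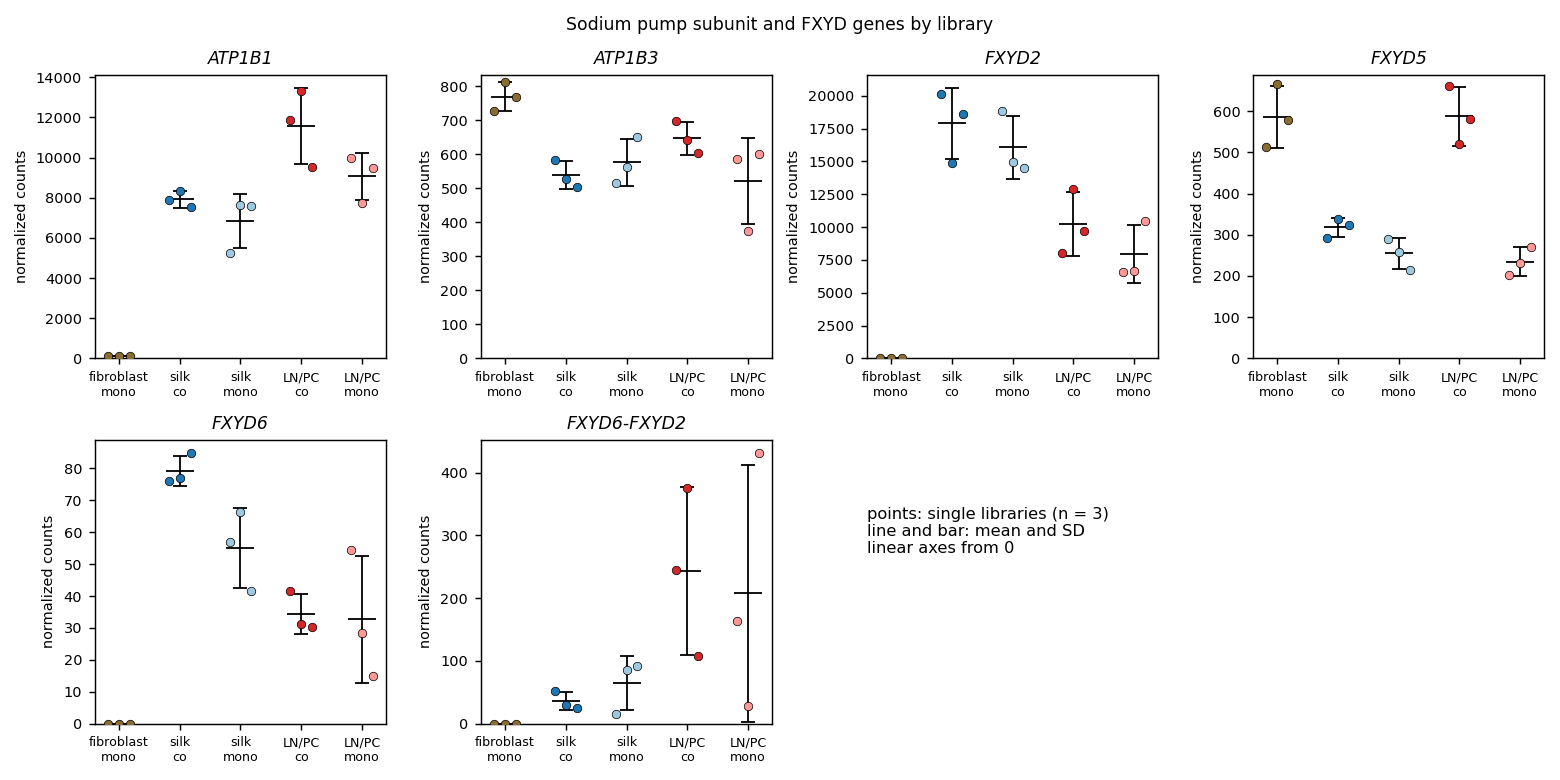
Normalized counts of 6 genes by library (points), with the mean and SD of 3 libraries per group, on linear axes from 0; groups run from fibroblast monocultures through co-cultures on silk, monocultures on silk and co-cultures on LN/PC to monocultures on LN/PC. FXYD2 and FXYD6 stand at 0 in fibroblasts, FXYD2 is highest on silk, and FXYD5 is near 587 in co-cultures on LN/PC and 235 in monocultures on LN/PC.

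FXYD2 was higher on silk than on LN/PC, with and without fibroblasts. FXYD2 (ENSG00000137731.14) lies on the minus strand of chromosome 11 at 117800844 to 117828698. It stood at 18848, 14937 and 14468 normalized counts in monocultures on silk, against 6595, 6688 and 10462 in monocultures on LN/PC. With fibroblasts it stood at 20129.5, 14890.4 and 18638 in co-cultures on silk, against 8038, 12861 and 9734 in co-cultures on LN/PC. All 6 silk libraries were above all 6 LN/PC epithelial libraries, and all 3 fibroblast libraries were at 0. In order of mean level, co-cultures on silk came first, then monocultures on silk, co-cultures on LN/PC and monocultures on LN/PC, and the only neighbours in that order whose libraries did not overlap were monocultures on silk and co-cultures on LN/PC.

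In monocultures on silk against monocultures on LN/PC FXYD2 was 2.07 times as high (log2 difference 1.05 ± 0.23 SE, adjusted p = 0.00972, limma with Benjamini-Hochberg adjustment), and in co-cultures on silk against co-cultures on LN/PC 1.77 times (0.82 ± 0.23, adjusted p = 0.0116). It was the only one of the 5 genes called between the monocultures, where 11.7% of 14433 tested genes were called. That call held under every alternative run, with log2 differences of 0.93 to 1.27. The co-culture call was lost without the first co-culture library on silk (0.73, adjusted p = 0.0527) or the first co-culture library on LN/PC (0.67, adjusted p = 0.0634). With the fibroblast share subtracted from co-cultures on LN/PC the difference was 0.62 (adjusted p = 0.0433, limma). Adding fibroblasts gave no call on silk (0.15, 95% interval -0.34 to 0.64, adjusted p = 0.811) or on LN/PC (0.37, -0.12 to 0.86, adjusted p = 0.322). On LN/PC it became a call when libraries were scaled on 72 epithelium-restricted genes, which moved the median of all genes to 0.38 (0.80, adjusted p = 0.0118).

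FXYD2 was at least 3840-fold lower in fibroblasts than in epithelial monocultures, taking 3 reads per library as the limit that a count of 0 allows. Per kilobase it averaged 28393 normalized counts in monocultures on silk and 13972 in monocultures on LN/PC, against 3043 per kilobase for ATP1B1 in monocultures on silk and 4036 in monocultures on LN/PC. In ratio to ATP1B1 within a library, FXYD2 stood at a log2 of 1.17 ± 0.287 in co-cultures on silk and -0.19 ± 0.319 in co-cultures on LN/PC, and at 1.25 ± 0.515 in monocultures on silk and -0.22 ± 0.372 in monocultures on LN/PC (SD, n = 3 each). The ratio was higher in every library on silk than in any epithelial library on LN/PC.

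FXYD6, a regulator best known from the brain, was the least abundant of the 5 genes, and its read-through with FXYD2 ran the other way between the co-cultures. FXYD6 (ENSG00000137726.17, minus strand of chromosome 11 at 117836976 to 117877486) stood at 76.1, 76.8 and 84.7 normalized counts in co-cultures on silk, against 41.5, 31.4 and 30.2 in co-cultures on LN/PC. Without fibroblasts it stood at 56.9, 66.5 and 41.6 in monocultures on silk, against 54.4, 28.5 and 15.05 in monocultures on LN/PC. The co-culture groups did not overlap and the monoculture groups did. FXYD6 was 2.29 times as high in co-cultures on silk as in co-cultures on LN/PC (log2 difference 1.19 ± 0.38 SE, adjusted p = 0.0229, limma). The call was lost without any 1 of the 3 co-culture libraries on silk, or without the second or the third co-culture library on LN/PC (adjusted p of 0.0537 to 0.0738), and with the fibroblast share subtracted (1.00, adjusted p = 0.0570). Between the monocultures the log2 difference was 0.89 ± 0.38 (adjusted p = 0.136). Leaving out 1 library at a time gave 0.44 to 1.34, with an adjusted p of 0.0346 to 0.499. It was a call only without the first monoculture library on LN/PC (1.34, adjusted p = 0.0346). FXYD6 was at 0 in all 3 fibroblast libraries and at least 14.0-fold lower there than in epithelial monocultures.

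FXYD6-FXYD2 (ENSG00000255245.4, minus strand of chromosome 11 at 117820163 to 117876667) starts at the FXYD6 promoter and splices from FXYD6 into FXYD2. The window upstream of its start is shown because the read-through shares it with 1 of the 2 FXYD6 starts in RefSeq, chr11:117876609-117876908, minus strand of GRCh38.p14, with GC boxes in capitals. The junction is shown because it is the join between FXYD6 and FXYD2 sequence. In both annotated transcripts it joins exon 6, which ends in FXYD6 sequence at 117839781 to 117839830, to exon 7, which is FXYD2 sequence at 117822679 to 117822717, with 17063 bases spliced out between them. Capitals in the junction mark the FXYD2 exon.
Shared promoter: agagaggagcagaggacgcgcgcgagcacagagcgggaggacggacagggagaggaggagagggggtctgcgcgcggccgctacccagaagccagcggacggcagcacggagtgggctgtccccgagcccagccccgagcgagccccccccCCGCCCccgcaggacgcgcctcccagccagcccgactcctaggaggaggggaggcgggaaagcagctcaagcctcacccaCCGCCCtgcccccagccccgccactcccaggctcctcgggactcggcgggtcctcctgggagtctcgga
Junction: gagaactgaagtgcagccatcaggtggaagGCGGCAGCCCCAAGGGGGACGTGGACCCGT

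FXYD6-FXYD2 stood at 52.4, 30.4 and 24.8 normalized counts in co-cultures on silk, against 245, 376 and 108 in co-cultures on LN/PC. Without fibroblasts it stood at 15.5, 85.8 and 92.6 in monocultures on silk, against 164, 28.2 and 431 in monocultures on LN/PC. The co-culture groups did not overlap, whereas the monoculture groups did, and monocultures on LN/PC spread over the widest range of the 4 groups. The read-through was lower in co-cultures on silk than in co-cultures on LN/PC, at 0.162 times the level (log2 difference -2.62 ± 0.79 SE, adjusted p = 0.0165, limma), a call lost without the third co-culture library on silk (-2.40, adjusted p = 0.0628) or the second co-culture library on LN/PC (-2.22, adjusted p = 0.0683). Between the monocultures the difference was -1.32 ± 0.79 (adjusted p = 0.281). Leaving out 1 library at a time gave -2.38 to -0.44, with an adjusted p of 0.0152 to 0.796. It was a call only without the second monoculture library on LN/PC (-2.38, adjusted p = 0.0152). The log2 ratio of read-through to FXYD6 was -1.22 ± 0.626 in co-cultures on silk and 2.66 ± 0.877 in co-cultures on LN/PC (SD, n = 3 each), again with no overlap. Of the 31-base words of the 2 read-through transcripts, 40.3% and 50.3% also occur in FXYD2 transcripts and 45.9% and 44.9% in FXYD6 transcripts, while 13.8% and 4.80% occur in neither. Values of the 3 genes are therefore uncertain where reads were split among them. With FXYD2 and the read-through summed, a choice made after the data were seen, the sum was higher on silk than on LN/PC in monocultures (log2 difference 1.02, adjusted p = 0.0121, limma) and in co-cultures (0.79, adjusted p = 0.0153).

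**Figure D2:**
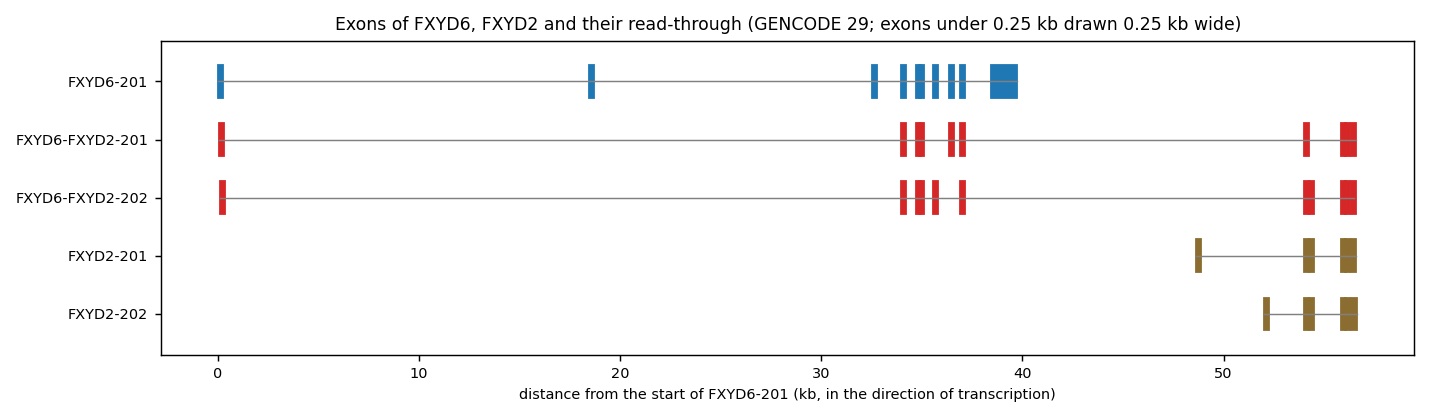
Exons (boxes) of FXYD6, its read-through with FXYD2 and FXYD2 in GENCODE 29, against distance in kilobases from the start of the FXYD6 transcript drawn, running in the direction of transcription. The read-through transcripts start within FXYD6 and end on FXYD2 exons.

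**Figure D3:**
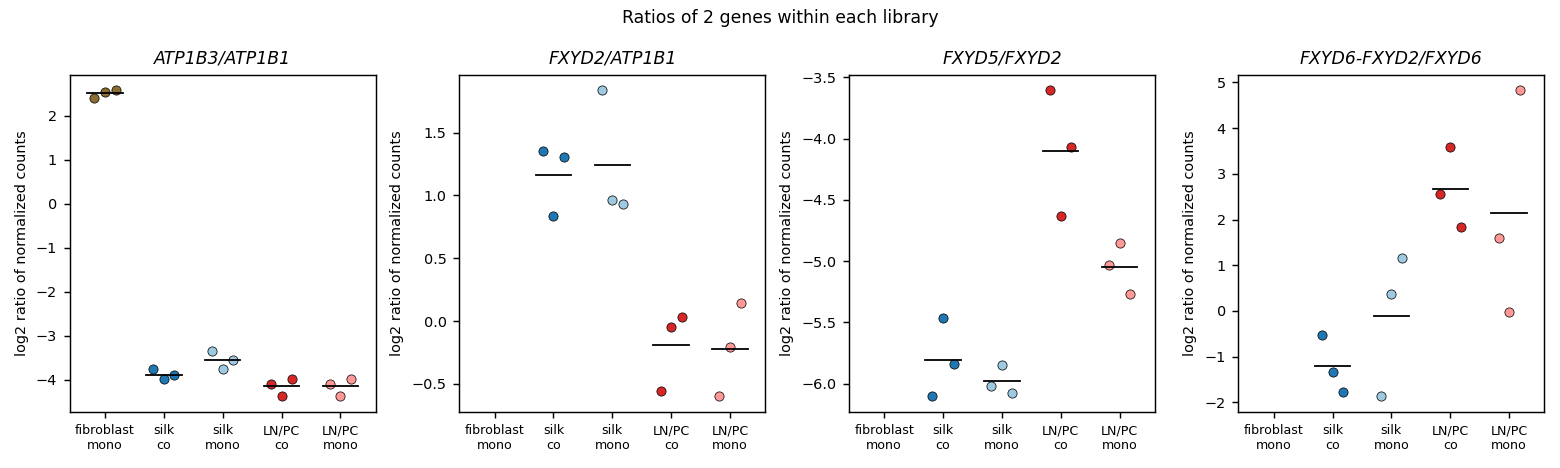
Log2 ratios of 2 genes within each library (points) with group means (lines), in the same group order; ratios with a gene at 0 are left out, so fibroblasts have none for FXYD2 and FXYD6. The ratio of ATP1B3 to ATP1B1 is 2.52 in fibroblasts and below -3 in every epithelial library, and the ratio of FXYD6-FXYD2 to FXYD6 is below 0 in co-cultures on silk and above 1 in co-cultures on LN/PC.

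FXYD5 moved with fibroblast co-culture on LN/PC, and its change there differed from that on silk. FXYD5 (ENSG00000089327.15) lies on the plus strand of chromosome 19 at 35154730 to 35169883. It stood at 662, 519 and 581 normalized counts in co-cultures on LN/PC, against 202, 232 and 271 in monocultures on LN/PC. On silk it stood at 293, 338 and 325 in co-cultures, against 291, 259 and 215 in monocultures. The fibroblast monocultures stood at 514, 666 and 578, over the same range as the co-cultures on LN/PC, and all other libraries were below both groups.

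FXYD5 was 2.50 times as high in co-cultures on LN/PC as in monocultures on LN/PC (log2 difference 1.32 ± 0.18 SE, adjusted p = 4.94e-05, limma), the only 1 of the 5 genes called, where 12.5% of 14433 tested genes were. On silk the difference was 0.33 ± 0.18 (95% interval -0.04 to 0.70, adjusted p = 0.369). None of the 5 genes was called there, where 3.78% of tested genes were called by limma and 2449 genes had an unadjusted p under 0.05. None of the 5 genes was among those 2449, and over all alternatives run on silk the number called was also 0. The difference between the 2 co-culture effects was -0.99 ± 0.25 (adjusted p = 0.0200), in a comparison that called 7.73% of genes. It kept its sign under every alternative, at -1.23 to -0.82, and lost its call without the first co-culture library on silk (adjusted p = 0.0568), the first monoculture library on LN/PC (0.0536), or the first (0.0804) or the third (0.0503) co-culture library on LN/PC.

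FXYD5 was 0.544 times as high in co-cultures on silk as in those on LN/PC (log2 difference -0.88 ± 0.18 SE, adjusted p = 0.00129, limma), and this call held under every alternative. Between monocultures on the 2 membranes the difference was 0.12 (95% interval -0.25 to 0.49, adjusted p = 0.704). FXYD5 was also 2.39 times as high in fibroblasts as in epithelial monocultures (1.26 ± 0.16, adjusted p = 2.94e-05), so fibroblast RNA in a co-culture adds to it. Mixtures of each monoculture on LN/PC with 12.97% fibroblast RNA averaged 280 normalized counts of FXYD5, of which the fibroblasts gave 76.0, against 587 ± 71.4 measured in co-cultures on LN/PC. Every co-culture library on LN/PC was above every mixture. With the mixtures in place of the monocultures the log2 difference was 1.06 (adjusted p = 0.00164, limma). Fibroblast share estimated from summed markers was larger, at 20.9% of co-cultures on LN/PC, and mixtures at that share were not made. The mixtures, like the subtraction of the fibroblast share, take fibroblasts in co-culture to keep their monoculture levels. Fibroblast markers did not all keep 1 proportion to those levels. COL1A1 averaged 35573 normalized counts in co-cultures on LN/PC and 109268 in fibroblast monocultures, and LUM 2344 and 6798. PDGFRB averaged 506 and 8069 in the same groups. What this does to the results with mixtures or subtraction was not tested. In bulk RNA the rest of the FXYD5 difference cannot be assigned to either cell type.

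**Figure D4:**
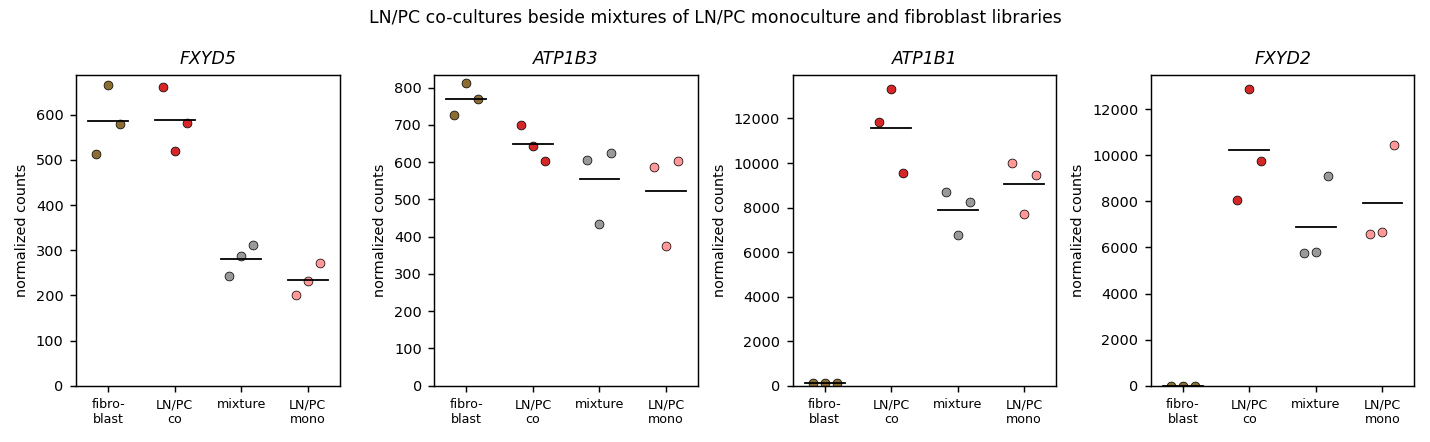
Normalized counts of 4 genes in fibroblast monocultures, co-cultures on LN/PC, computed mixtures of monoculture on LN/PC and fibroblast libraries at the mean fibroblast share, and monocultures on LN/PC; points are libraries and lines are means, on axes from 0. FXYD5 averages 587 in co-cultures on LN/PC, 280 in the mixtures and 235 in monocultures on LN/PC.

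Among the co-cultures 4 of the 5 genes differed between silk and LN/PC, where 36.1% of tested genes did: FXYD2 and FXYD6 were higher on silk, and ATP1B1 and FXYD5 were lower. ATP1B1 was 0.690 times as high (log2 difference -0.53 ± 0.19 SE, adjusted p = 0.0397, limma), and the libraries of the 2 groups did not overlap. This call was lost with equal library totals (-0.40, adjusted p = 0.0791), and without any 1 of the 3 co-culture libraries on silk or the first or second co-culture library on LN/PC (adjusted p of 0.0739 to 0.140). With the fibroblast share subtracted it was -0.73 (adjusted p = 0.00786). ATP1B3 differed by -0.27 (95% interval -0.64 to 0.11, adjusted p = 0.256). In the same comparison 24 of 25 fibroblast markers were lower on silk, with summed levels of 9017 to 10668 normalized counts in co-cultures on silk and 149278 to 253231 in co-cultures on LN/PC. FXYD2 and FXYD6 were at 0 in fibroblasts.

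**Figure D5:**
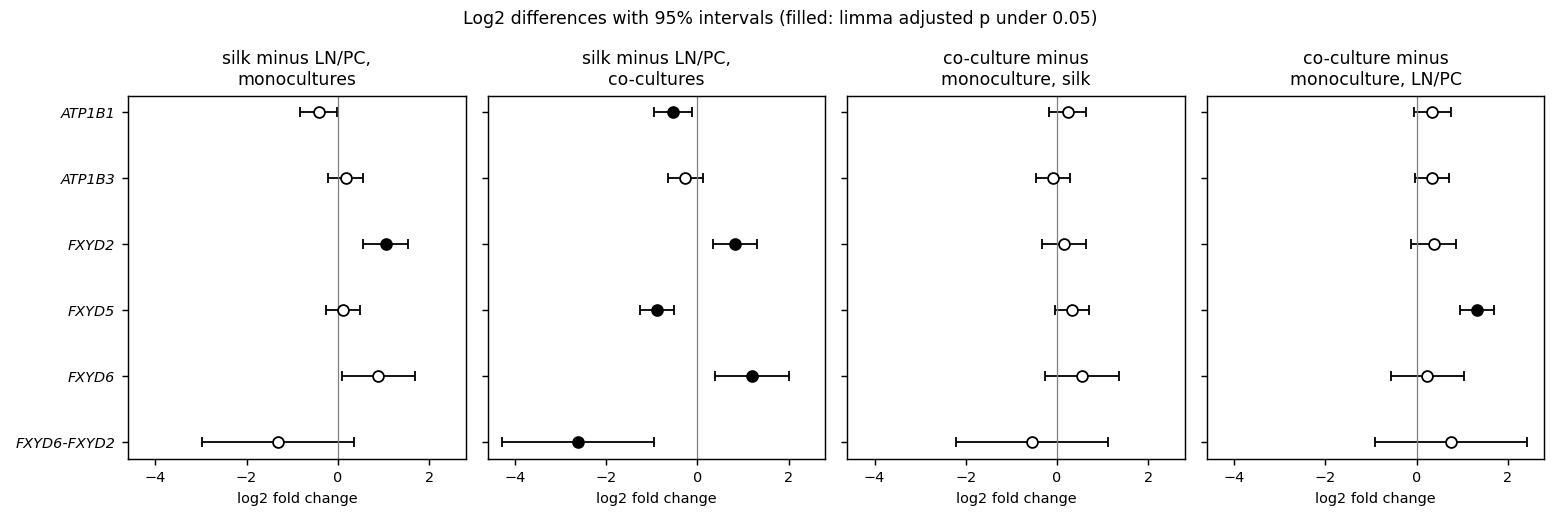
Log2 differences between groups for 6 genes (points) with 95% intervals from limma (bars), for 4 comparisons; filled points passed an adjusted p of 0.05. FXYD2 is filled for silk against LN/PC in both culture types, and FXYD5 for co-culture on LN/PC and for silk against LN/PC among co-cultures.

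The 2 FXYD genes best measured here were also set against each other within each library, with no test. The log2 ratio of FXYD5 to FXYD2 was -5.80 ± 0.322 in co-cultures on silk and -4.10 ± 0.515 in co-cultures on LN/PC, and -5.98 ± 0.116 in monocultures on silk and -5.05 ± 0.210 in monocultures on LN/PC (SD, n = 3 each). Every library on silk was below every epithelial library on LN/PC, and on LN/PC every co-culture was above every monoculture.

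Of 9 transcription factors and cofactors linked to FXYD2 and the distal tubule, 7 were tested. In monocultures on silk against monocultures on LN/PC 2 were higher and 1 lower, with a list median of 0.29 against 0.03 over all genes, and in co-cultures on silk against co-cultures on LN/PC 4 were higher and 1 lower, with a list median of 0.61 against 0.03. Between the monocultures 11.7% of all genes were called, and between the co-cultures 36.1%. PCBD1, a transcriptional coactivator, was higher on silk in both culture types. It averaged 405 ± 88.2 normalized counts in monocultures on silk and 196 ± 38.1 in monocultures on LN/PC (log2 difference 1.03, adjusted p = 0.00666, limma), and 377 ± 39.2 in co-cultures on silk and 172 ± 33.3 in co-cultures on LN/PC (1.14, adjusted p = 0.000777). TFCP2L1, a factor of the distal nephron, was higher too (0.86, adjusted p = 0.0290 in monocultures, and 1.11, adjusted p = 0.00207 in co-cultures). Its monoculture call was lost without the first or second monoculture library on silk, or the first or the third on LN/PC, with an adjusted p of up to 0.141, and with only those 2 groups in the fit (adjusted p = 0.0750). ESRRG, an orphan nuclear receptor, went the other way (-1.11, adjusted p = 0.00159 in monocultures, and -1.01, adjusted p = 0.000648 in co-cultures). All 3 were measured in the same libraries as FXYD2, and their part in its level was not tested.

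Of 19 hormone and kinase regulators of the pump, 17 were tested. In co-cultures on silk against monocultures on silk 3 were higher and none lower, where 3.78% of all genes were called. The list median was -0.03 against 0.00 over all genes. SIK1, a salt-inducible kinase that responds to sodium load, stood at 654, 447 and 455 normalized counts in co-cultures on silk, against 52.0, 54.2 and 58.8 in monocultures on silk (log2 difference 3.19 ± 0.31 SE, adjusted p = 1.05e-05, limma). On LN/PC it stood at 68.5, 90.0 and 153 in co-cultures, against 52.0, 33.1 and 63.9 in monocultures (1.02 ± 0.31, adjusted p = 0.0377). The silk call held under every alternative, while the LN/PC call was lost in 11 of 23, with an adjusted p of up to 0.174, among them without the first or second monoculture library on LN/PC and without the second or the third co-culture library on LN/PC. SGK1, a kinase induced by corticosteroids that raises sodium transport, was higher in co-cultures on LN/PC, at 6570.3 ± 757 normalized counts, than in monocultures on LN/PC, at 3873 ± 589.8 (0.77, adjusted p = 0.00676). NR3C1, the glucocorticoid receptor, was higher in co-cultures on both membranes (0.63, adjusted p = 0.00912 on silk and 0.60, adjusted p = 0.00499 on LN/PC). It averaged 2066 ± 68.9 in fibroblast monocultures, and its LN/PC call was lost against the mixtures (0.36, adjusted p = 0.103), and its silk call without the third co-culture library on silk or with equal library totals (adjusted p of up to 0.0733).

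Among 28 sodium-coupled carriers and channels, which the pump's gradient drives, 15 were tested. Between co-cultures on the 2 membranes 4 were higher on silk and 1 lower, with a list median of 0.47 against 0.03 over all genes and 36.1% of all genes called. SLC38A1, a neutral amino acid carrier, averaged 3839 ± 557 normalized counts in co-cultures on silk and 1367 ± 347 in co-cultures on LN/PC (log2 difference 1.51, adjusted p = 1.87e-05, limma). SLC6A6, the taurine carrier, averaged 4377 ± 119.5 in co-cultures on silk and 1708 ± 167 in co-cultures on LN/PC (1.36, adjusted p = 6.35e-05). SLC4A4, the basolateral sodium bicarbonate cotransporter, averaged 899.5 ± 50.3 in co-cultures on silk and 422 ± 113 in co-cultures on LN/PC (1.13, adjusted p = 0.000541). These 3 calls held under every alternative. Between the monocultures 1 was higher on silk and 2 lower, where 11.7% of all genes were called. SLC34A2, a sodium phosphate cotransporter, was the higher one (1.62, adjusted p = 0.0243), a call lost without the first or second monoculture library on silk (adjusted p of up to 0.110). SLC12A1 was lower on silk (-1.13, adjusted p = 0.00355), as was the phosphate carrier SLC20A2 (-0.91, adjusted p = 0.00126), and both these calls held under every alternative.

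Magnesium handling was followed because FXYD2 is known from inherited magnesium loss. Of 14 listed genes 10 were tested, and 1 was higher on silk than on LN/PC among monocultures and 3 among co-cultures, with none lower in either and list medians of 0.08 and 0.38 against 0.03 over all genes in both. Of all genes 11.7% were called among monocultures and 36.1% among co-cultures. The tested genes included PARVA, which codes for alpha-parvin, an actin-binding protein and not a magnesium carrier. The tested number and the list medians therefore cover it, while it was not among the genes called between the membranes. CLDN16, the tight junction protein of paracellular magnesium uptake, stood at 1910, 1192 and 1532 normalized counts in monocultures on silk, against 547, 508 and 613 in monocultures on LN/PC. With fibroblasts it stood at 1833, 1476 and 2057 in co-cultures on silk, against 278, 245 and 370.1 in co-cultures on LN/PC. No LN/PC library reached a silk library (log2 differences 1.45, adjusted p = 0.000251 in monocultures and 2.59, adjusted p = 1.05e-07 in co-cultures, limma).

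Junction and adhesion genes were followed because FXYD5 is known to act on cell contacts. All 9 listed genes were tested, among them CCL2, which codes for a chemokine. In co-cultures on LN/PC against monocultures on LN/PC none was higher and 2 were lower, where 12.5% of all genes were called. The list median was -0.22 against -0.04 over all genes. EZR, which links membrane proteins to actin, averaged 3671 ± 384 normalized counts in co-cultures on LN/PC and 6278 ± 498 in monocultures on LN/PC (log2 difference -0.78, adjusted p = 0.00301, limma), a call lost when libraries were scaled on epithelium-restricted genes (-0.35, adjusted p = 0.122). Between the membranes 3 were higher and 1 lower on silk in co-cultures, with a list median of 0.07, and 1 was higher and 2 lower in monocultures, with a list median of -0.30, each against 0.03 over all genes. Of all genes 36.1% were called in co-cultures and 11.7% in monocultures. The lower ones on the list were catenins, proteins of cadherin complexes. CTNNB1 was lower in co-cultures (-1.17, adjusted p = 0.00385, limma). In monocultures CTNNA1 (-0.84, adjusted p = 0.0110) and CTNND1 (-0.77, adjusted p = 0.0473) were lower. The CTNNA1 call was lost in 2 alternatives and the CTNND1 call in 12 of 22. CDH1, or E-cadherin, was higher on silk in co-cultures, at 110 ± 7.85 normalized counts against 41.0 ± 6.03 on LN/PC (1.41, adjusted p = 0.000954), and in monocultures, at 80.8 ± 6.96 against 36.6 ± 9.91 (1.15, adjusted p = 0.0136), where the call was lost without the third monoculture library on LN/PC (adjusted p = 0.0617) or with only those 2 groups in the fit (adjusted p = 0.0553).

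Over the 12 epithelial libraries, the genes whose log2 levels ran most like each member among the 9994 genes with a mean of at least 100 normalized counts were listed as a description, since these libraries share 4 groups. FXYD5 ran most like PLOD1 (Pearson r = 0.97), P4HA2 (0.96) and MME (0.96). FXYD2 ran most like RNF128 (0.93), MAPK12 (0.91) and MRPL14 (0.91), and FXYD6 most like NMT2 (0.95), TEX10 (0.93) and CPT1A (0.93). ATP1B1 ran most like AMZ2 (0.95) and CDK7 (0.94) after an unnamed gene, ENSG00000264772 (0.96), and ATP1B3 most like MICAL2 (0.92), RAN (0.89) and ANAPC5 (0.88). Among the members themselves, r was 0.56 between ATP1B1 and FXYD5, 0.55 between FXYD2 and FXYD6, 0.53 between the beta subunits, and -0.51 between ATP1B1 and FXYD2.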

How the data were processed

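Members and lists were chosen with earlier results of these data known, and some listed genes are not reported here. Poly-A RNA was sequenced with a kit that keeps strand, per the labels' protocols. Salmon 1.10.3 and DESeq2 are named in the submitters' processing notes, while the sources used here do not give the build, annotation, settings or strand use in counting, so genes that overlap on opposite strands, such as FXYD6 and FXYD6-AS1, are uncertain. The deposited table is titled normalized counts, but the values the authors deposited are log2 values that share a lowest value of 5.54. They were inverted, with y as 2 to the power of the value and c as 2 to the power of the lowest value, as (y - c) squared over y; the medians of the libraries' ratios to the gene means then agreed within 6.27e-09. Library totals of 9078771 to 12662726 normalized counts correspond to an estimated 8467980 to 14069696 reads. The worth of 1 read was taken as the spacing that best fitted low values. Only 26.2% to 47.9% of values under 10 lay within 0.1 of a whole read. The share to be found there without any spacing was not computed. Limits at 0 are therefore rough estimates, for counting error only. No 2 libraries were identical.

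limma 3.58.1 (R 4.3.3) was fitted to log2(normalized count + 1) over genes with at least 10 in at least 3 libraries, on the 12 epithelial libraries or, for fibroblasts, on 9 monoculture libraries; calls needed a Benjamini-Hochberg adjusted p under 0.05. Fold changes are on that scale and understate low genes. Fits were tested on simulated counts with independent libraries and the same extra spread for every gene. That test does not cover linked libraries or genes as variable as FXYD6-FXYD2. The fibroblast share is the median excess of 112 genes whose fibroblast mean was 1000 or more and 100 or more times each epithelial monoculture mean. Named genes were the members, the measured family list, up to 4 called genes with the largest change per other list and comparison, and the 3 most alike genes per member. Alternatives covered scaling, pseudocount, filter, libraries fitted, the deposited log2 values, a replicate block and leaving out each library.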

Additional observations from a re-analysis of the deposited data

Results flagged for a closer look

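The effect of adding fibroblasts differed between the 2 membranes for FXYD5 and for 11 genes of the related lists, each by a test of that difference in limma with Benjamini-Hochberg adjustment over 14433 genes. Over all genes 1116 were called, or 7.73%. The lists held 15 tested sodium-coupled carriers, 17 pump regulators, 11 anchoring proteins, 7 transcription factors, 11 potassium channels, 10 genes of the magnesium list and 9 of the adhesion list. Values are the effect on silk minus the effect on LN/PC, on the log2 scale. For FXYD5 it was -0.99 (adjusted p = 0.0200).

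Among sodium-coupled carriers it was 1.70 for SLC5A3 and 1.06 for SLC38A1, and among pump regulators 2.17 for SIK1 and 0.73 for OXSR1. Among anchoring proteins it was -6.20 for EPB41L3, -2.51 for ANK2 and 0.80 for SPTBN1. EPB41L3 was at 0 in all 3 monocultures on LN/PC, so its fitted value depends on the pseudocount and is no bound. It was 0.91 for the nuclear receptor ESRRA, -4.36 for the potassium channel KCNK2, 1.14 for CLDN16 and 1.26 for EZR. The calls for SLC5A3, EPB41L3, KCNK2 and EZR held under every alternative run for this difference, none of which used mixtures with fibroblast RNA, and that for SIK1 was lost only with all 15 libraries in the fit (adjusted p = 0.0531). The other 7, FXYD5 among them, each lost their call in at least 4 alternatives. Fibroblast RNA was 0.0457% of co-cultures on silk and 12.97% of co-cultures on LN/PC. Against mixtures with fibroblast RNA, the effect on LN/PC alone was 0.62 in place of 5.46 for EPB41L3, 0.43 in place of 3.87 for ANK2 and -0.38 in place of 4.01 for KCNK2, none of them still called, and SLC38A1 lost its call too (-0.45, adjusted p = 0.163). On LN/PC FXYD5, SLC5A3, SIK1, CLDN16 and EZR were still called against the mixtures (1.06, -0.87, 1.17, -0.72 and -0.59). The difference between membranes was not refitted with mixtures.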

How the results depend on the processing

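Of 646 values of the 5 members under alternatives, 616 kept direction and call, 22 lost a call, 4 gained one and 4 turned sign. The calls of FXYD2 between monocultures, and of FXYD5 on LN/PC and between co-cultures, held throughout. The labels do not say whether replicate numbers pair the samples. Over 18 pairs of same-numbered epithelial libraries the correlation of deviations ran from -0.254 to 0.189, with 2 over 0.1. Pairs with different numbers were not compared, so these values cannot tell whether a number marks a shared batch. With replicate as a block, the count of genes called was 1317 between silk and LN/PC monocultures, 4811 between co-cultures, 443 for co-culture on silk and 1558 on LN/PC, and among the members the ATP1B1 call between co-cultures was lost (adjusted p = 0.0632, limma).

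With only the compared groups in the fit, calls numbered 754 between monocultures, 1174 for co-culture on silk and 1088 for co-culture on LN/PC. Scaling on epithelium-restricted genes gave 949 for co-culture on silk and 3776 on LN/PC, with 4 members called on LN/PC. By summed markers the fibroblast share was 0.118% on silk and 20.9% on LN/PC. Leaving out 1 library at a time gave 695 to 3208 calls between monocultures (1 to 2 members), 3415 to 5732 between co-cultures (1 to 4 members), 207 to 819 for co-culture on silk, 753 to 2007 on LN/PC and 465 to 1359 for the difference of effects (0 to 1 member).

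None of the log2 differences that turned sign was a member's call. ATP1B3 between monocultures ran from -0.052 to 0.29 with 1 library left out, and on silk it was 0.10 for co-culture with scaling on epithelium-restricted genes. On LN/PC, the effect of co-culture ran from -0.21 to 0.69 for FXYD6 and from -0.30 to 1.64 for the read-through, and the difference of effects from -0.14 to 0.75 for FXYD6. KCNK2 was 0.34 between co-cultures with the fibroblast share subtracted, and -0.38 on LN/PC against mixtures. The cause was not tested.

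The share of calls that were higher moved with scaling. With equal totals it was 63.1% in place of 50.4% between monocultures, 63.0% in place of 51.3% between co-cultures, 53.7% in place of 77.1% for co-culture on silk, 38.1% in place of 62.3% on LN/PC and 28.6% in place of 48.0% for fibroblasts. Scaling on epithelium-restricted genes gave 67.1% between monocultures, 36.7% between co-cultures, 94.2% for co-culture on silk, 96.7% on LN/PC and 18.7% in place of 40.7% for the difference of effects.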

Other observations

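Proteins that anchor the pump to the membrane skeleton were all measured, 11 of 11. None was called for co-culture on silk by limma, 3 were higher and none lower for co-culture on LN/PC, and 2 were higher and 4 lower in co-cultures on silk than in those on LN/PC, with a list median of -0.42 against 0.03 over all genes. In these comparisons, in that order, 3.78%, 12.5% and 36.1% of all genes were called. The 3 higher on LN/PC were EPB41L3 (5.46), ANK2 (3.87) and ADD2 (1.30), and each lost its call against mixtures with fibroblast RNA, at 0.62 (adjusted p = 0.658), 0.43 (adjusted p = 0.504) and 1.04 (adjusted p = 0.0504). Of 15 tubule potassium channels 11 were tested, with 2 higher and 1 lower between the co-cultures, where 36.1% of all genes were called. The lower one, KCNK2 (-6.09), was 0.34 with the fibroblast share subtracted. Of the transcription factors linked to FXYD2, none was higher and 1 was lower in LN/PC cultures with fibroblasts than without, where 12.5% of all genes were called. PAX8, a factor of renal epithelium, averaged 1878 ± 44.9 normalized counts in those co-cultures and 3803 ± 883 in the monocultures (SD, n = 3 each; log2 difference -0.99, adjusted p = 0.00112, limma), and the call held against mixtures with fibroblast RNA (-0.79, adjusted p = 0.0160).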
